A study of Mus musculus with 12 samples.

Results

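Of the genes that differed between Igf2bp3-/- and Igf2bp3+/- mouse round spermatids, 8 lay in the first 35 Mb of chromosome 5 and had no near-identical copy elsewhere in the annotated transcripts. They were picked by name from a table of 28643 gene symbols because their levels differed between the genotypes, and 436 symbols of that table start in the same stretch of the chromosome. Of the 8, 5 encode proteins (Cdk14, Letm1, Zfyve28, Cfap99 and Lhfpl3) and 3 are long intergenic noncoding RNAs (Gm31752, 6030443J06Rik and 5031425E22Rik). Because the genotype difference chose them, that difference is given below as a description, and its counts past a limit only restate the choice.

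The cells were spermatids from male mice aged 8 weeks, kept in cycloheximide, which halts translating ribosomes, throughout flow sorting. The Igf2bp3 frameshift was made by Cas9 in C57BL/6 zygotes that were carried by KM foster mothers. By the library titles and the study, Igf2bp3+/- animals, with 1 frameshifted allele, served as the control. Every animal here thus carried the edited allele, and Igf2bp3-/- animals carried it on both chromosomes. The column headings of the deposited values call the control libraries WT instead. The homozygotes came either from heterozygous parents or from subfertile homozygous fathers and fertile homozygous mothers, and which cross gave which library is not stated. For the experiments on spermatids, Igf2bp3-/- males of impaired fertility were chosen. Each genotype was measured by RNA-seq of the input extract and by RNC-seq, the sequencing of RNA from polysome fractions holding at least 4 ribosomes, with 3 replicates in each of the 4 groups and 12 libraries in all.

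IGF2BP3 is an RNA-binding protein that recognises mRNA, including mRNA with methylated adenosines, and affects its stability and translation. Round spermatids are the haploid cells that follow meiosis. They transcribe many genes and store part of the mRNA for use after transcription stops, so an RNA's level and its share on polysomes can move apart. Igf2bp3 itself lies on chromosome 6, apart from the 8 genes. Its own mRNA averaged 36.7 FPKM (fragment density normalised to transcript length and library size) in Igf2bp3+/- and 31.9 FPKM in Igf2bp3-/- RNA-seq, a log2 difference of -0.20 (limma, adjusted p = 0.335), and since the lesion is a frameshift this level does not check the genotypes.

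By the GENCODE M21 annotation of GRCm38, Cdk14 spans chr5:4803391-5420312 on the minus strand and Gm31752 spans chr5:18481705-18490194 on the minus strand. Further along lie 6030443J06Rik at chr5:22550432-22807850 and Lhfpl3 at chr5:22746059-23275597, both on the plus strand, and 5031425E22Rik at chr5:23382308-23434269 on the minus strand. The last 3 are Letm1 at chr5:33739673-33782817 and Zfyve28 at chr5:34194893-34288449, both on the minus strand, and Cfap99 at chr5:34288600-34327327 on the plus strand. The starts of neighbouring members lay 13.1 Mb, 4.06 Mb, 0.196 Mb, 0.688 Mb, 10.3 Mb and 0.506 Mb apart up to Zfyve28, whose start was 151 bases from that of Cfap99. The 8 genes thus formed an isolated Cdk14, an isolated Gm31752, a group of 3 between 22.6 and 23.4 Mb and a group of 3 between 33.7 and 34.3 Mb.

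The letters before some start sites are shown: for the strongest of the lower genes of each kind, for the stretch shared by Zfyve28 and Cfap99, and around the one cyclic AMP response element found. Their bearing on the genotype differences was not tested. The printed letters are described here only by their motifs. The letters come from the RefSeq annotation of GRCm38.p6, read 5′ to 3′ on the strand named, and capitals mark a motif where there is one in the printed stretch. The motifs searched on both strands were the cyclic AMP response element TGACGTCA, the CCAAT box CCAAT, the GC box GGGCGG and the TATA box TATAAA, in the window from 250 bases before to 50 bases after each RefSeq start.
Gm31752, chr5:18495283-18495532, minus strand: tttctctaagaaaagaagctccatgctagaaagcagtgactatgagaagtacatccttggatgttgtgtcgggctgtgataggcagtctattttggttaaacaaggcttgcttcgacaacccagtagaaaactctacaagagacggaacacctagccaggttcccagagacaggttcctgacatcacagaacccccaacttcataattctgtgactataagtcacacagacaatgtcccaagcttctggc
Lhfpl3, chr5:22745804-22746053, plus strand: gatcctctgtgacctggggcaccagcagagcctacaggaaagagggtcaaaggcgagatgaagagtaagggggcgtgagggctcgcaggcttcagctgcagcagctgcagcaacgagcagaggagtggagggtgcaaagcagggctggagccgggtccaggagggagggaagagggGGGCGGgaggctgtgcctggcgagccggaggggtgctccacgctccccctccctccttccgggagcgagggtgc
Zfyve28 and Cfap99, chr5:34288450-34288574, plus strand: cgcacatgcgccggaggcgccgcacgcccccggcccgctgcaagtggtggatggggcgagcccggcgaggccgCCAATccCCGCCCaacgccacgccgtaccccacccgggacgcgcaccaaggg
6030443J06Rik, chr5:22550389-22550418, plus strand: gcgcggtcgagTGACGTCAgggagccgcgc

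The windows of the 8 genes differed widely in base composition. That of Cdk14 was 81.3% G and C, above 99.3% of the 32817 RefSeq promoters of the same length, whereas that of Gm31752 was 46.0%, below the median of 52.7%. The GC box lay in 6 of the 8 windows and in 35.6% of all promoters, and the CCAAT box lay in 4 of the 8 (5031425E22Rik, Letm1, Zfyve28 and Cfap99, the last pair sharing 1 copy) and in 37.4% of all. The cyclic AMP response element, the site bound by the spermatid factor CREM and its relatives, lay only before 6030443J06Rik among the 8 and in 1.79% of all promoters. The other windows, and copies of a motif that lie outside the printed stretches, are not shown. The TATA box was in none of the 8 windows and in 13.6% of all promoters. The RefSeq start of Gm31752 lies outside the GENCODE span of that gene, so its window is that of another annotated start. For Cdk14 and 5031425E22Rik the RefSeq start lies well inside the GENCODE span, at 5380251 against 5420312 and at 23433336 against 23434269. The windows of Cdk14 and 5031425E22Rik therefore do not reach the GENCODE starts given above. The RefSeq starts of Letm1 (33782717 against 33782817), Zfyve28 (34288324 against 34288449) and Cfap99 (34288665 against 34288600) also lie inside the span. Their windows still hold the GENCODE starts.

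In the control RNA-seq libraries the 4 coding genes that were higher in Igf2bp3-/- averaged from 0.533 FPKM (Zfyve28) to 14.4 FPKM (Cfap99). Letm1 encodes a cation exchanger of the mitochondrial inner membrane. It read 3.34, 3.69 and 3.98 FPKM in Igf2bp3+/- RNA-seq and 11.3, 11.8 and 13.5 FPKM in Igf2bp3-/-, and 1.70, 1.94 and 2.21 FPKM against 8.33, 9.65 and 4.97 FPKM in RNC-seq. All Igf2bp3-/- libraries of each assay lay above all Igf2bp3+/- libraries, and the means differed 3.33-fold in RNA-seq and 3.92-fold in RNC-seq. On the scale of log2(FPKM + 0.1), on which every log2 value here is given and which understates the change of low genes, the differences were 1.71 ± 0.12 (SE, n = 3 per group) and 1.87 ± 0.29.

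Zfyve28 encodes a FYVE-domain protein that takes part in the endosomal sorting of the EGF receptor. It read 0.543, 0.571 and 0.485 FPKM in Igf2bp3+/- RNA-seq and 2.20, 1.86 and 1.88 FPKM in Igf2bp3-/-, a 3.72-fold difference of the means (log2 1.71 ± 0.18). In RNC-seq it was the lowest of the coding genes in Igf2bp3+/-, with 0.135, 0.144 and 0.287 FPKM, against 0.370, 1.02 and 0.656 FPKM in Igf2bp3-/-. The groups did not overlap in either assay, but the lowest Igf2bp3-/- RNC-seq library was close to the highest control, and the log2 difference there was 1.39 ± 0.43.

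Cfap99 belongs to the cilia and flagella associated proteins, a group that includes parts of the sperm tail, and starts 151 bases from Zfyve28 on the other strand. Cfap99 was far more abundant, at 13.9, 13.9 and 15.4 FPKM in Igf2bp3+/- RNA-seq and 22.5, 22.2 and 23.4 FPKM in Igf2bp3-/-, and its difference was the smallest of the 8 in RNA-seq at 1.58-fold (log2 0.66 ± 0.09). In RNC-seq it read 6.64, 8.30 and 8.05 FPKM against 21.5, 19.5 and 13.7 FPKM, a 2.38-fold difference (log2 1.22 ± 0.24). Both genes of this divergent pair were therefore higher in Igf2bp3-/- in all 3 replicates of both assays, by unequal amounts in RNA-seq.

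Cdk14 encodes a kinase of the PFTAIRE type that pairs with cyclin Y at the membrane and phosphorylates the Wnt co-receptor LRP6. It read 4.59, 6.01 and 4.68 FPKM in Igf2bp3+/- RNA-seq and 9.19, 9.08 and 12.3 FPKM in Igf2bp3-/-, a 2.00-fold difference (log2 0.98 ± 0.16). In RNC-seq it read 2.60, 2.47 and 1.66 FPKM against 7.55, 10.2 and 7.38 FPKM, a 3.74-fold difference (log2 1.87 ± 0.26). The difference on polysomes was the larger one for this gene, and the groups stood apart in both assays.

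Lhfpl3, of the LHFPL family of small tetraspan membrane proteins, was the single coding gene of the 8 that was lower in Igf2bp3-/-. It read 2.14, 2.00 and 1.59 FPKM in Igf2bp3+/- RNA-seq and 0.341, 0.443 and 0.492 FPKM in Igf2bp3-/-, and in RNC-seq 3.17, 1.50 and 2.13 FPKM against 0.221, 0.213 and 0.151 FPKM. The means were 4.49-fold lower in RNA-seq and 11.6-fold lower in RNC-seq (log2 -1.94 ± 0.21 and -2.95 ± 0.35), the widest separation of any of the 8 in each assay on the log2 scale. Of its exonic bases, 17.6% are overlapped on the other strand by the noncoding RNA A930003O13Rik. Whether strand was used when the authors quantified the reads is not stated, so reads of this pair cannot be told apart there.

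Among the noncoding RNAs, Gm31752 was the most abundant of all 8 genes in the control libraries. It read 19.7, 20.9 and 16.3 FPKM in Igf2bp3+/- RNA-seq and 6.43, 5.28 and 6.24 FPKM in Igf2bp3-/-, and 45.9, 21.7 and 30.1 FPKM against 5.75, 4.48 and 7.52 FPKM in RNC-seq. The Igf2bp3+/- RNC-seq libraries varied widely, with 32.6 ± 12.3 FPKM (SD, n = 3), and the lowest of them was still above every Igf2bp3-/- library. The means were 3.17-fold and 5.50-fold lower in Igf2bp3-/- (log2 -1.64 ± 0.13 and -2.40 ± 0.30).

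6030443J06Rik, whose span on the same strand runs past the start of Lhfpl3 without sharing exons with it, was lower to a lesser degree. It read 10.1, 8.66 and 7.34 FPKM in Igf2bp3+/- RNA-seq and 4.21, 4.00 and 4.49 FPKM in Igf2bp3-/-, and 15.9, 11.5 and 11.1 FPKM against 4.48, 4.21 and 4.48 FPKM in RNC-seq. The means were 2.05-fold and 2.92-fold lower (log2 -1.01 ± 0.14 and -1.51 ± 0.23). The Igf2bp3-/- libraries were close together in both assays, and none reached the lowest Igf2bp3+/- library.

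5031425E22Rik, the third noncoding RNA, went the other way although it lies 0.688 Mb from Lhfpl3 by their starts. It read 0.436, 0.475 and 0.404 FPKM in Igf2bp3+/- RNA-seq and 1.30, 1.36 and 1.23 FPKM in Igf2bp3-/-, and 0.172, 0.413 and 0.293 FPKM against 2.10, 1.38 and 1.68 FPKM in RNC-seq. The means were 2.96-fold and 5.87-fold higher in Igf2bp3-/- (log2 1.38 ± 0.19 and 2.24 ± 0.35). The RNC-seq fold was the largest of the 5 higher genes.

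**Figure D1:**
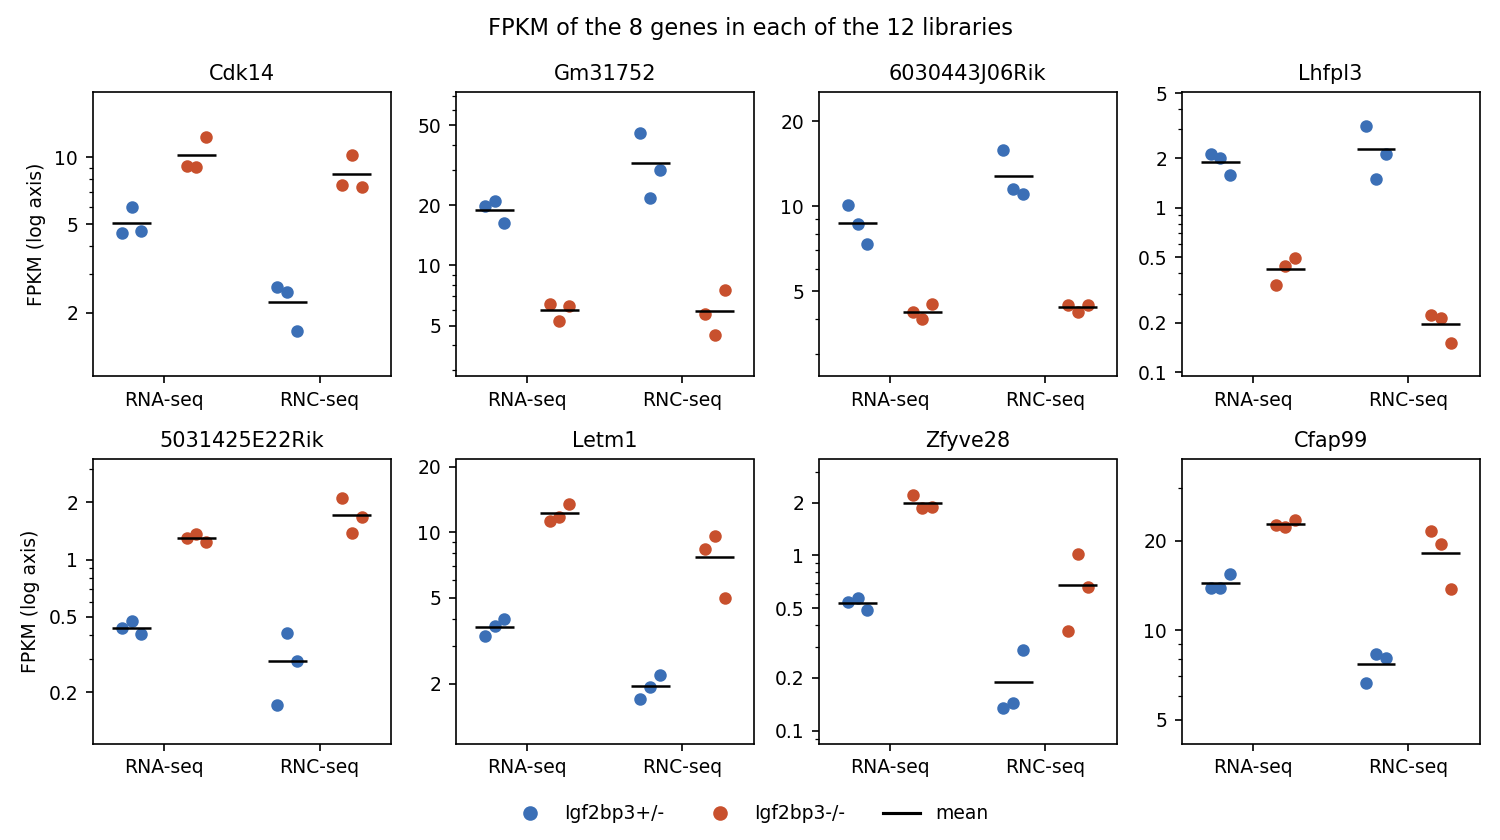
FPKM (log axis, its range set for each gene) of the 8 genes in the 12 libraries, with a point for each library, Igf2bp3+/- in blue, Igf2bp3-/- in red and a line at the mean of each group of 3. In every panel the genotypes stand apart in both assays, with Cdk14, 5031425E22Rik, Letm1, Zfyve28 and Cfap99 higher and Gm31752, 6030443J06Rik and Lhfpl3 lower in Igf2bp3-/-.

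Counted together, 7 of the 8 genes passed an adjusted p of 0.05 in RNA-seq, 4 higher and 3 lower, where 0.256% of the 20352 tested genes did so (0.197% higher and 0.059% lower). In RNC-seq 6 passed, 3 in each direction, where 0.115% of the 19051 tested genes did so (0.0787% higher and 0.0367% lower). These counts restate how the genes were picked. Of the 8, 5 passed in both assays (Gm31752, 6030443J06Rik, Lhfpl3, 5031425E22Rik and Letm1), Zfyve28 and Cfap99 passed in RNA-seq alone and Cdk14 in RNC-seq alone. Just inside the limit in RNA-seq lay 5031425E22Rik, 6030443J06Rik and Cfap99, with log2 differences of 1.38, -1.01 and 0.66, and just outside lay Cdk14 with 0.98. In RNC-seq 6030443J06Rik, Letm1 and 5031425E22Rik, with -1.51, 1.87 and 2.24, lay just inside and Cfap99, with 1.22, outside. For each of the 8, all Igf2bp3-/- values of an assay lay on 1 side of all Igf2bp3+/- values, as held for 22.7% of all tested genes in RNA-seq and 11.3% in RNC-seq. The absolute log2 difference was larger in RNC-seq than in RNA-seq for 7 of the 8, all but Zfyve28. The standard error was larger in RNC-seq for each of the 8, and the share of all genes with a larger RNC-seq difference was not counted. This count is therefore not read as a trait of the 8, and none passed in the fit of genotype by assay given below.

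The median log2 difference of all tested genes was 0.05 in RNA-seq and 0.13 in RNC-seq. Centring the libraries on their medians moved the RNC-seq median of all genes by -0.12, and of the 8 genes 3 were then past the limit there, 0 higher and 3 lower. The direction of each member stayed as described under this and every other setting tried. In RNA-seq, leaving out any 1 of the Igf2bp3-/- libraries left 2 of the 8 past the limit, and in RNC-seq leaving out Igf2bp3-/- replicate 1 left 0, both by limma, with 0 genes of the whole table past the limit in that latter fit and 990 at an unadjusted p under 0.05.

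Marker genes of other testis cells also differed between the genotypes in the sorted fraction. The summed FPKM of 7 Leydig cell markers, the steroid-producing cells between the tubules, ran from 15.4 to 22.6 in Igf2bp3+/- and from 48.6 to 55.0 in Igf2bp3-/- RNA-seq, and from 6.75 to 14.3 against 51.5 to 103 in RNC-seq. All 7 were higher in Igf2bp3-/- in both assays, 4 of them past the limit in RNA-seq and 1, Insl3, in RNC-seq, and none was at 0 in all libraries. The sum of 8 macrophage markers ran from 5.42 to 6.60 against 8.86 to 9.91 in RNA-seq and from 3.49 to 5.17 against 8.52 to 11.4 in RNC-seq. The sum of 5 peritubular cell markers ran from 1.77 to 2.24 against 4.55 to 5.82 in RNA-seq and from 0.827 to 1.48 against 2.55 to 3.88 in RNC-seq. The sum of 5 blood cell genes ran from 6.58 to 7.22 against 11.8 to 14.3 in RNA-seq and overlapped in RNC-seq, from 13.6 to 19.2 against 16.6 to 36.4. In RNA-seq the peritubular sum rose through Dcn, a matrix gene of many stromal cells, which averaged 0.871 and 3.88 FPKM. The contractile genes did not follow in that assay. Their RNA-seq log2 differences were 0.13 for Acta2, -0.30 for Myh11 and -0.39 for Cnn1, with a median of -0.08 over the 4 tested. In RNC-seq all 3 tested were higher, Dcn by 2.56 ± 0.46 (SE), Acta2 by 0.59 ± 0.29 and Cnn1 by 0.57 ± 0.59. Of each of these last 3 lists, 1 gene passed the limit in RNA-seq and none in RNC-seq. The 6 round spermatid markers summed to 575 to 732 FPKM in Igf2bp3+/- and 712 to 895 in Igf2bp3-/- RNA-seq. None of the Sertoli cell, spermatogonia, spermatocyte, round spermatid or elongating spermatid markers passed the limit in either assay by limma. At an unadjusted p under 0.05 were 4 of these 26 in RNA-seq and 1 of 25 in RNC-seq, against 3190 of 20352 and 1235 of 19051 of all tested genes. The Leydig, macrophage, peritubular and blood cell sums move with the 5 genes that were higher in Igf2bp3-/-, and their part in those differences was not tested. In such sorted bulk samples, a change in the number of cells of a type and a change of RNA per cell cannot be told apart.

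Polysome loading, the log2 difference of RNC-seq minus RNA-seq within 1 genotype, was below 0 for 4 of the coding genes and above 0 for 2 of the noncoding RNAs in the control. It is computed from the same libraries as the genotype difference. A gene picked as higher in Igf2bp3-/- tends to low control values in the assays that picked it, and a gene picked as lower to high ones. Such shifts in RNA-seq and in RNC-seq move the loading in opposite directions. The loadings of the 8 are therefore given as a description too. In Igf2bp3+/- the loading was -1.16 ± 0.22 (SE) for Cdk14, -0.88 ± 0.18 for Letm1, -1.17 ± 0.32 for Zfyve28 and -0.90 ± 0.15 for Cfap99, all past the limit. Their mean RNC-seq FPKM was 0.441, 0.531, 0.354 and 0.533 times their mean RNA-seq FPKM. Among all 17942 tested genes, 25.1% had a loading below 0 and past the limit. The fifth coding gene, Lhfpl3, stood at 0.19 ± 0.28, and this value fell to -0.08 without Igf2bp3+/- RNC-seq replicate 1, its highest library.

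Of the noncoding RNAs, Gm31752 and 6030443J06Rik had a positive loading in Igf2bp3+/-, at 0.72 ± 0.25 and 0.55 ± 0.19, both just past the limit. Of all tested genes, 18.6% were above 0 and past the limit. Over 16 settings, the main one included, Gm31752 passed in 9 and 6030443J06Rik in 11. For these 2 RNAs the RNC-seq mean was 1.72 and 1.48 times the RNA-seq mean, so RNAs annotated as noncoding were present in the heavy fractions. As a class, 30.7% of the 1471 tested long intergenic noncoding RNAs had such a positive loading and 8.29% a negative one, against 15.6% and 31.0% of the 12475 protein-coding genes. Without Igf2bp3+/- RNA-seq replicate 2, 3 of the 8 genes were past the limit in this comparison in place of 6, all 3 lower. 5031425E22Rik, the third noncoding RNA, stood at -0.50 ± 0.32.

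In Igf2bp3-/- Zfyve28 alone was past the limit, at -1.50 ± 0.32, where 10.9% of the 18456 tested genes were below 0 and past it and 10.1% above, and it did not pass without Igf2bp3-/- RNA-seq replicate 1. Lhfpl3 stood at -0.83 ± 0.31, Letm1 at -0.72 ± 0.25, Cfap99 at -0.34 ± 0.20 and Cdk14 at -0.28 ± 0.21. The noncoding RNAs stood at -0.04 ± 0.22 for Gm31752, 0.05 ± 0.17 for 6030443J06Rik and 0.36 ± 0.23 for 5031425E22Rik. The difference in loading between the genotypes ran from -1.02 ± 0.39 for Lhfpl3 to 0.88 ± 0.30 for Cdk14, and none of the 8 passed the limit in the fit of genotype by assay over all 12 libraries, with a smallest adjusted p of 0.686.

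**Figure D2:**
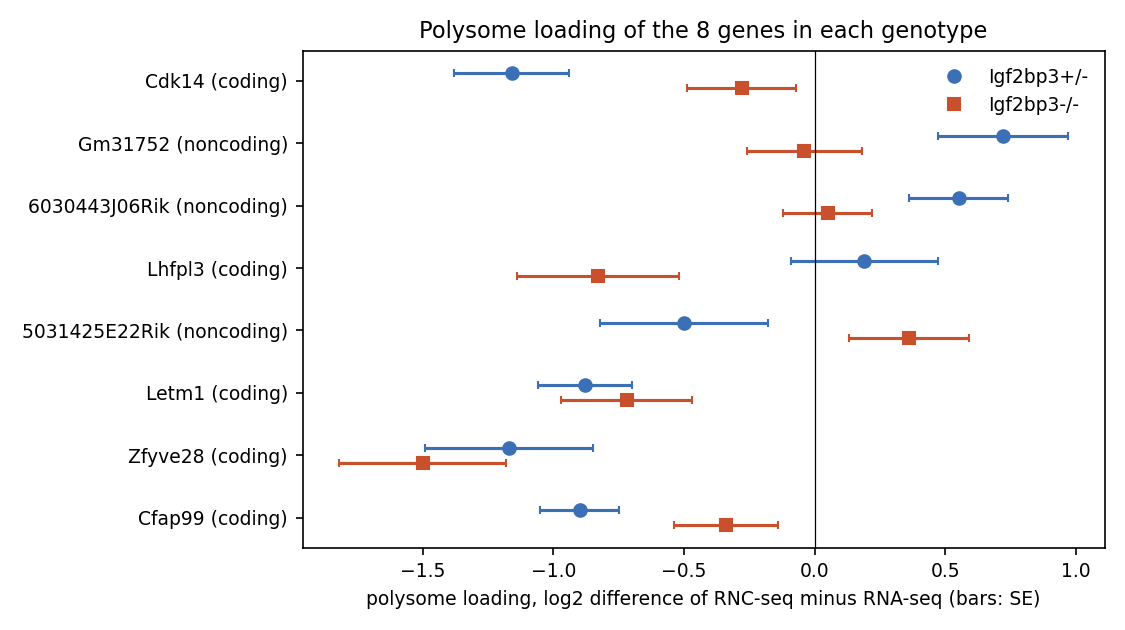
Polysome loading (log2 difference of RNC-seq minus RNA-seq FPKM) of the 8 genes in Igf2bp3+/- (blue circles) and Igf2bp3-/- (red squares), with bars of 1 SE and 3 libraries per assay. In Igf2bp3+/- Cdk14, Letm1, Zfyve28 and Cfap99 lie at -0.88 or below and Gm31752 and 6030443J06Rik at 0.55 or above, and in Igf2bp3-/- the latter pair lie at -0.04 and 0.05.

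The genes around the 8 were examined next. Across the genome, 57 genes passed the limit for genotype in either assay. Of these, 13 started in the first 35 Mb of chromosome 5, the 8 picked genes among them, and 0 on the rest of that chromosome. The chromosome had 1257 genes tested in both assays, of which 952 start beyond 35 Mb. In the stretch 3.69% of 325 tested genes passed in RNA-seq and 2.89% of 311 in RNC-seq, or 1.58% and 0.99% without the 8. Of all tested genes 0.256% and 0.115% passed. At these last shares few of the 952 genes would pass, so the 0 there marks no sharp boundary. Apart from the 8, the 5 genes of the stretch past the limit all had between 5 and 9 near-identical copies. They were Gm9758 and Gm17019, lower in Igf2bp3-/- by RNA-seq log2 differences of -1.81 and -1.83, and Gm21149, Gm21190 and Gm21083, higher by 1.41, 1.30 and 1.86, and they start between 14.9 and 15.6 Mb, between Cdk14 and Gm31752. Of the genes of the stretch that are neither among the 8 nor copied, 217 were tested in RNA-seq and 204 in RNC-seq, and by limma 0 passed the limit in each, with medians of -0.00 and 0.10. That count is fixed by the choice, since the single-copy genes of the stretch past the limit are the 8 themselves.

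At an unadjusted p under 0.05 by limma there were 41 of these 217 genes in RNA-seq and 13 of the 204 in RNC-seq, and beyond 35 Mb 150 and 62 of the 952 genes. Of all tested genes, 3190 of 20352 in RNA-seq and 1235 of 19051 in RNC-seq were at that level. Of the genes past neither limit and without copies, the 5 with the smallest p were A930003O13Rik, Gm26648, Nos3, Nub1 and Rgs12. Gm26648, an antisense gene, averaged 0.652 FPKM in Igf2bp3+/- and 0.195 FPKM in Igf2bp3-/- RNA-seq (limma, adjusted p = 0.118). Nos3, the endothelial nitric oxide synthase gene, averaged 1.88 and 0.934 FPKM (adjusted p = 0.124), and Rgs12, a regulator of G-protein signalling, averaged 10.8 and 7.07 FPKM (adjusted p = 0.132). Nub1, whose product binds the ubiquitin-like protein NEDD8, averaged 43.5 and 60.0 FPKM (adjusted p = 0.124).

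**Figure D3:**
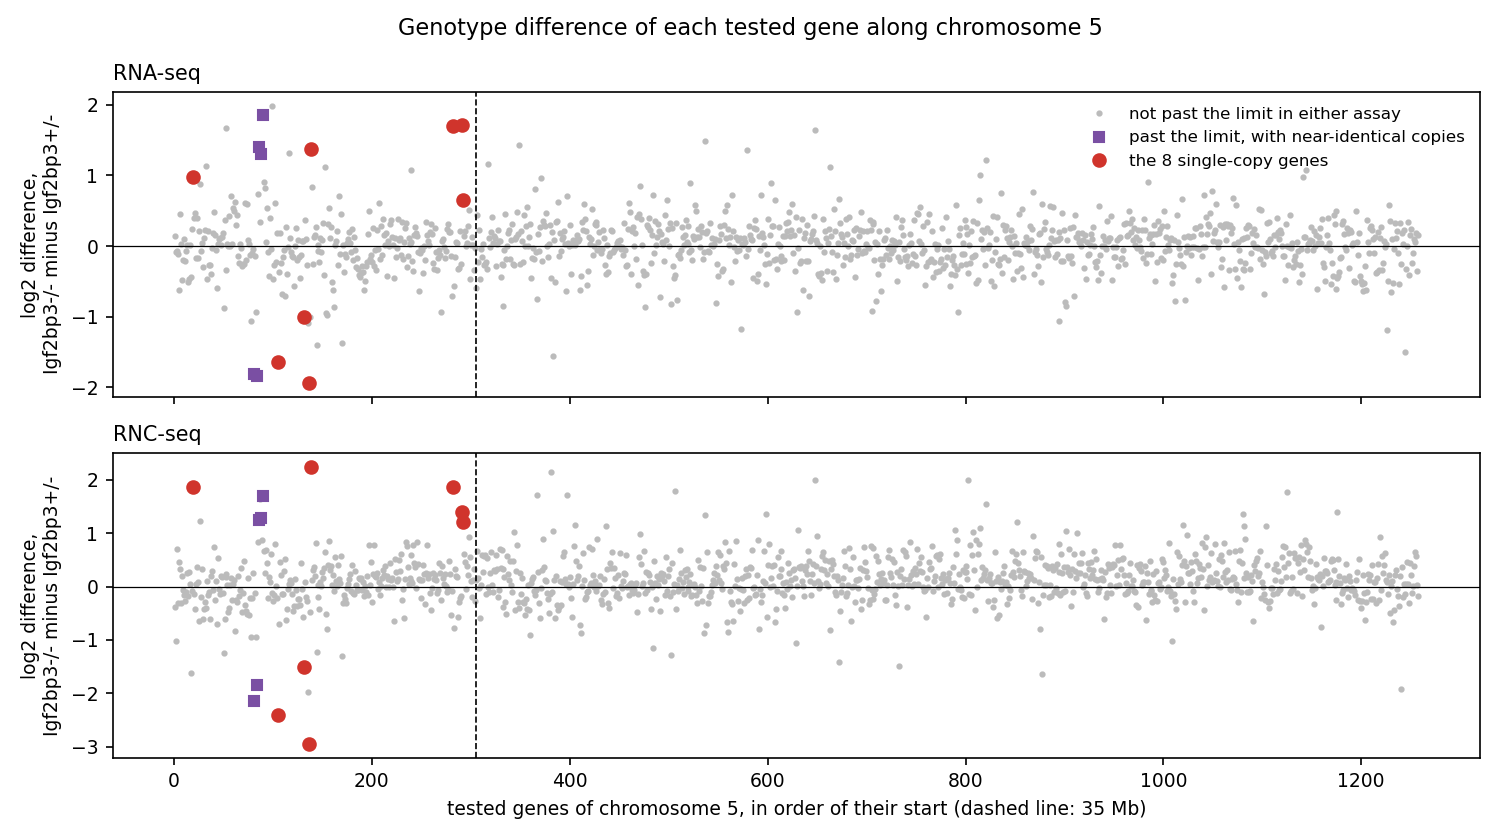
Log2 difference (Igf2bp3-/- minus Igf2bp3+/-) in RNA-seq (top) and RNC-seq (bottom) of the 1257 genes of chromosome 5 tested in both assays, placed in the order of their starts, with the 8 genes as red circles, genes past the limit that have near-identical copies as purple squares and all others as grey points. All coloured points lie left of the dashed line at 35 Mb, where the 8 were picked, and beyond it no gene was past the limit in either assay. Of all tested genes 0.256% passed in RNA-seq and 0.115% in RNC-seq, so few would be expected there.

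The nearest genes lay on both sides of 0. For each of the 8 the 3 nearest tested genes on either side were taken, which gave 35 distinct genes besides the members. By limma, 0 of these passed the limit in either assay, which again follows from the choice. At an unadjusted p under 0.05 there were 6 of the 35 in RNA-seq and 4 in RNC-seq, against 3190 of 20352 and 1235 of 19051 of all tested genes. Of the 35, 18 were higher in Igf2bp3-/- in RNA-seq and 15 in RNC-seq, with median log2 differences of 0.01 and -0.05.

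Around Cdk14 the RNA-seq differences ran from -0.44 to 0.47 (Cldn12, a claudin gene) and those of RNC-seq from -1.63 (Mterf1b) to 0.06. Around Gm31752 they ran from -0.37 to 0.61 and from -0.70 to 0.80, with Cd36, a fatty acid receptor gene, the highest in both. Around 6030443J06Rik they ran from -0.27 to 0.37 (Gm9057) and from -0.58 (Gm15421) to 0.44. The widest ranges were beside Lhfpl3 and 5031425E22Rik, at -1.09 to 0.84 in RNA-seq for both genes, apart from each other, and at -1.97 to 0.12 and -1.97 to 0.37 in RNC-seq.

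The lowest value there was that of A930003O13Rik, the noncoding RNA that overlaps Lhfpl3. Gm42951, a noncoding RNA between Lhfpl3 and 5031425E22Rik, was close behind in RNA-seq, with 13.1, 13.1 and 11.2 FPKM in Igf2bp3+/- and 8.42, 6.07 and 4.53 FPKM in Igf2bp3-/- (means of 12.4 and 6.34 FPKM, limma, adjusted p = 0.136), and with a log2 difference of -0.48 ± 0.47 in RNC-seq. Its genotypes did not overlap in RNA-seq.

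Around Letm1 the differences ran from -0.70 to 0.20 in RNA-seq and from -0.78 (Gm10059) to 0.33 in RNC-seq. The lowest in RNA-seq was Fgfr3, a growth factor receptor gene whose end faces that of Letm1, at 2.55 FPKM against 1.52 FPKM (limma, adjusted p = 0.172). Around Zfyve28 and Cfap99, other than each other, they ran from -0.31 (4930557J02Rik) to 0.22 in RNA-seq, where Mxd4, a MAX partner, was the largest beside Cfap99 at -0.25, and from -0.28 to 0.61 (Gm43105) in RNC-seq.

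**Figure D4:**
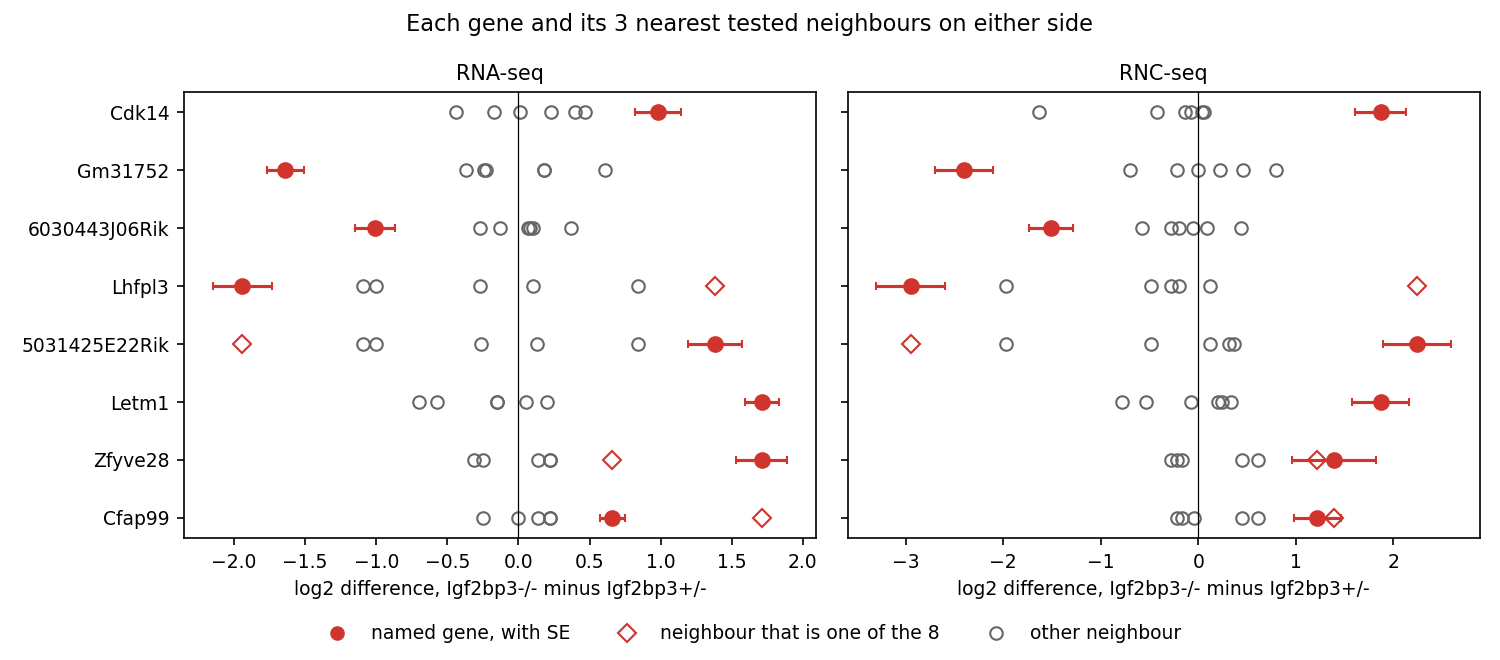
Log2 difference (Igf2bp3-/- minus Igf2bp3+/-) of each of the 8 genes (filled red, bars of 1 SE) and of its 3 nearest tested neighbours on either side (open symbols, red diamonds where the neighbour is itself one of the 8) in RNA-seq (left) and RNC-seq (right). The filled points lie outside the range of their grey neighbours in all 16 cases, which largely follows from the choice of the 8 by this difference. The outermost grey circle beside Lhfpl3 and 5031425E22Rik is A930003O13Rik at -1.09 and -1.97.

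In 4 places a member starts close to a gene on the other strand, and only some of the partners differed with it. 6030443J06Rik starts 3 bases from Orc5, a subunit of the origin recognition complex, and the cyclic AMP response element shown above lies close to this shared start. While 6030443J06Rik was lower in Igf2bp3-/-, Orc5 averaged 11.0 FPKM in Igf2bp3+/- and 11.6 FPKM in Igf2bp3-/- RNA-seq, a log2 difference of 0.07 ± 0.11 (limma, adjusted p = 0.784). In RNC-seq Orc5 averaged 13.4 and 12.7 FPKM (-0.05 ± 0.24, adjusted p = 0.981).

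5031425E22Rik starts 172 bases from Kmt2e, which encodes a chromatin protein of the MLL family. While 5031425E22Rik was higher in Igf2bp3-/-, Kmt2e averaged 2.56 and 2.11 FPKM in RNA-seq (log2 -0.26 ± 0.14, limma, adjusted p = 0.416) and 0.724 and 0.933 FPKM in RNC-seq (0.31 ± 0.31, adjusted p = 0.877). The RNA-seq libraries of Kmt2e were lower in all 3 Igf2bp3-/- replicates, opposite to the direction of 5031425E22Rik, and neither Orc5 nor Kmt2e passed the limit in either assay.

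The start of Lhfpl3 lies inside A930003O13Rik, and these partners went the same way. A930003O13Rik read 1.03, 1.08 and 1.08 FPKM in Igf2bp3+/- RNA-seq and 0.492, 0.297 and 0.600 FPKM in Igf2bp3-/-, and 1.43, 1.14 and 1.33 FPKM against 0.184, 0.270 and 0.325 FPKM in RNC-seq. It was lower in every Igf2bp3-/- library, and it missed the limit in both assays (log2 -1.09 ± 0.25, limma, adjusted p = 0.157, and -1.97 ± 0.33, adjusted p = 0.0512). The remaining pair, Zfyve28 and Cfap99, consists of members on both sides, higher together, and the printed stretch of 125 bases, which lies between their GENCODE starts, holds 1 CCAAT box beside 1 GC box.

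Genes whose levels followed each member over the 12 libraries were named by Pearson's r of log2(FPKM + 0.1) among 12265 genes with a mean of at least 1 FPKM. Since the 12 libraries are 4 groups of 3 and the members were picked for a difference between those groups, these correlations largely restate the group differences and are given as a description. Gm31752 and 6030443J06Rik followed each other with r = 0.98, Gramd3 followed them with r = 0.985 and 0.949 and Pcdh12, a protocadherin gene, with r = 0.935 and 0.944, and Lhfpl3 was followed by the multicopy Gm9758 (r = 0.964) and Gm17019 (r = 0.952) and by Gm31752 (r = 0.935). Letm1 and Cfap99 followed each other with r = 0.96, and Cfap99 was also followed by Lrrc61 (r = 0.939) and Agt (r = 0.938).

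The genes most like the higher members included several that Leydig and other somatic cells express. Cdk14 was followed by Gstm2 (r = 0.958), a glutathione transferase gene, and by Cyp17a1 (r = 0.941), the 17-hydroxylase of androgen synthesis and one of the Leydig cell markers above, and by Ephx1 (r = 0.934), an epoxide hydrolase gene. 5031425E22Rik was followed by Akr1cl (r = 0.972) and by Insl3 (r = 0.958), the peptide hormone of Leydig cells, and Ptgds (r = 0.957), a prostaglandin synthase gene. Letm1 was followed by Gstm1 (r = 0.974) and Agt (r = 0.973), which encodes angiotensinogen, and Zfyve28 by Aldh1a1 (r = 0.973), Sparc (r = 0.95) and Gsn (r = 0.941). Over all 8 genes, the 3 most alike gave 24 pairs with r from 0.934 to 0.985, and 7 of the 24 were genes of the first 35 Mb of chromosome 5. Of these 7, 5 were members themselves, picked for the same genotype difference. Gm31752 with 6030443J06Rik and Letm1 with Cfap99 were each counted in both directions. The rest were Gm9758 and Gm17019, which were past the limit for genotype. The share of the stretch among all genes compared was not counted, so the 7 are not read as a trait of the stretch. The Leydig cell sums given above differ between the same groups, and their part in this likeness was not tested.

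Genes related to the members by function were examined for the same difference. In 5 lists of relatives none passed the limit in either assay by limma. Of the PFTAIRE and PCTAIRE kinases and their cyclin Y partners, 6 were tested, with a median log2 difference of -0.01 in RNA-seq and 0.05 in RNC-seq, from Ccnyl1 at -0.16 to Cdk15 at 0.20 in RNA-seq and from Ccny at -0.13 to Cdk18 at 0.61 in RNC-seq. Of 10 genes of mitochondrial inner-membrane cation transport the median was 0.16 in RNA-seq, from Letmd1 at -0.18 to Mcub, a subunit that damps the calcium uniporter, at 0.58, and 0.19 in RNC-seq, from Micu3 at 0.02 to Micu2 at 0.56. Letm2, the closest relative of Letm1 and a gene of high level in these cells, averaged 96.6 FPKM in Igf2bp3+/- and 106 FPKM in Igf2bp3-/- RNA-seq, a log2 difference of 0.13 ± 0.09 (adjusted p = 0.503).

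Of 10 tested FYVE-domain endosomal genes the median was -0.11 in RNA-seq and 0.16 in RNC-seq, from Zfyve26 at -0.42 to Zfyve21 at 0.62 in RNA-seq and from Rbsn at -0.06 to Eea1 at 0.39 in RNC-seq. Of 25 other Cfap genes the median was 0.06 in RNA-seq and 0.17 in RNC-seq, from Cfap54 at -0.35 to Cfap69, which is needed for the sperm flagellum, at 0.40 in RNA-seq, and from Cfap97 at -0.16 to Cfap61 at 0.52 in RNC-seq. Cfap69 averaged 103 FPKM in Igf2bp3+/- and 136 FPKM in Igf2bp3-/- RNA-seq (adjusted p = 0.152). Of the LHFPL family other than Lhfpl3, 4 genes were in the table and 2 passed the filter on low values in RNA-seq, Lhfpl2 at 0.82 and Lhfp at 0.23, both at under 0.3 FPKM in each group mean, and Lhfpl2 alone in RNC-seq, at -0.61. Over the 5 lists, 9 of the 53 genes tested in RNA-seq and 0 of the 51 tested in RNC-seq were at an unadjusted p under 0.05. Of all tested genes, 3190 of 20352 and 1235 of 19051 were.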

How the data were processed

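The authors deposited 1 table of FPKM for the 12 libraries. By the study's methods and the submitters' processing notes, Trim Galore 0.6.6 removed adapters, HISAT2 placed the reads on GRCm38, and StringTie 2.1.7 gave the FPKM values. The table held 28668 symbols, less 25 that a spreadsheet had made into dates (0.103% of the summed FPKM, not used here), and 27780 matched GENCODE M21. The test was limma 3.58.1 (R 4.3.3) on log2(FPKM + 0.1), with an intensity trend, over genes with a mean FPKM above 0.1 (in both assays for loading), two-sided, with Benjamini-Hochberg adjustment over all tested genes and a limit of 0.05. The fit was checked on simulated data for the size of changes planted in genes of higher level. Calls of genes at low level were not checked in this way. Copies were sought with BLAST 2.17.0 (another gene at 95% identity over 50% of the longest transcript, or 90% over 30%), and none of the 8 genes had one. The FPKM file gives no counts, so the depth is unknown. The relative depth read from low values was 1.0 in Igf2bp3-/- RNA-seq replicate 1 and from 0.38 to 0.55 in the others. By the study's methods, spermatids were sorted from each mouse and each extract was split into RNA-seq input and polysome fractions, but neither they nor the labels tie a replicate number to a mouse across assays. A permutation test of 3 against 3 could not go below 0.1. The members and lists were chosen with earlier results of these data known. Besides the 8 genes, the text names the genes of the stretch past the limit, the 5 of smallest p without copies, the neighbour of largest change, the 3 genes of highest r and the extremes of each list.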

Additional observations from a re-analysis of the deposited data

How the results depend on the processing

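The genotype differences of the 8 genes kept their sign in all 238 values recomputed under alternative settings, whereas their number past the limit did not. In RNA-seq, 52 genes and 7 of the 8 members passed in the main analysis. Without a filter on low values these were 31 and 4, with library weights 84 genes, and with a fit over 12 libraries 4 members. Leaving out 1 library gave 9 to 38 genes and 2 to 6 members. In RNC-seq, 22 genes and 6 members passed. Without a filter these were 2 and 0, with median centring 13 and 3, with quantile normalization 12 and 3, without an intensity trend 1 and 0, and with a fit over 12 libraries 48 genes. Leaving out 1 library gave 0 to 20 genes and 0 to 3 members. The cause of these losses was not tested.

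For polysome loading, 7834 genes and 6 members passed in Igf2bp3+/-, and leaving out 1 library gave 3 to 6 members. In Igf2bp3-/-, 3880 genes and 1 member passed, against 3 members with a fit over 12 libraries, 2 with library weights and 2 without an intensity trend, and leaving out 1 library gave 1155 to 6182 genes and 0 to 2 members. The loading of Lhfpl3 in Igf2bp3+/- ran from -0.08 to 0.44 when 1 library was left out, below 0 without RNC-seq replicate 1. That of Gm31752 in Igf2bp3-/- turned to 0.03 with library weights, 0.01 without RNA-seq replicate 1 and 0.14 without RNC-seq replicate 2, with a range from -0.23 to 0.14 when 1 library was left out.

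Same-numbered libraries correlated in their deviations from the group means at -0.104 to 0.241, with no comparison above 0.1 in all 3 numbers, so the numbers were not taken to pair the samples. With a replicate block, 4 genes and 1 member passed in RNA-seq, 31 genes and 6 members in RNC-seq, 7678 genes and 6 members for loading in Igf2bp3+/-, and 4123 genes and 1 member for loading in Igf2bp3-/-. By the study's methods RNA-seq and RNC-seq came from 1 extract, and the block changed no loading call of a member. Of the 6 libraries in each comparison, 1 and 2 correlated best with their own number in the genotype comparisons, and 4 in each loading comparison. Groups of 3 allow no check for a single outlying library, and low values such as those of Zfyve28 in RNC-seq limit what this depth can show.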
